A study of Oryza sativa Indica Group with 24 samples.

Results

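Among the 26362 genes measured in developing rice grains, 200 genes were chosen by their measured levels because they were low at 7 and 14 days post-anthesis (DPA) and high at 21 and 28 DPA in both cultivars. Levels were FPKM, fragment numbers scaled to transcript length and to the size of the library, and the choice was made on the mean of log2(FPKM + 0.5) over the 3 libraries of each cultivar and DPA. A gene was eligible if its largest group mean was at least 5 and under 500 FPKM. In addition, the cultivars had to differ by less than 1 on this log2 scale at all 4 DPA, and the mean of the cultivars by less than 1 between 21 and 28 DPA. Of the 10651 eligible genes, the 200 with the highest score were kept, where the score is the lower of the 21 and 28 DPA values minus the higher of the 7 and 14 DPA values, averaged over the cultivars. The early and late levels, their stability from 21 to 28 DPA and their likeness in the cultivars are therefore what chose these genes, and they are described here without being counted as findings.

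The grains came from 2 cultivars of Oryza sativa ssp. indica, the waxy RD6, whose starch has very little amylose, and the non-glutinous, high-amylose RD57. Sampling took place at 4 stages (7, 14, 21 and 28 DPA) in 3 biological replicates of each cultivar, which gave 24 libraries in 8 groups, from plants of both cultivars grown in pots in a net house under natural light. No treatment was applied, and stage and cultivar were the factors compared. The tissue is labelled endosperm, while the RNA is described as extracted from grains, which also hold embryo, aleurone and maternal layers. Each cultivar is a single line, so a difference between RD57 and RD6 is one between these cultivars and not between amylose classes.

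A rice grain passes through early endosperm growth, a period of rapid starch and storage protein deposition, and a maturation phase in which the grain loses water and the starchy endosperm dies while the embryo and aleurone stay alive. Transcripts that become abundant late in cereal grains typically include those for desiccation tolerance, reserve protection and dormancy. Whether the 200 genes belong to such classes could not be read from the table. It lists genes by assembly identifiers (XLOC) that it does not pair with gene names, and 0 of these identifiers were found in the reference gene table used here, so roles are not given and tissue markers were not checked. In whole-tissue RNA, a change in the proportion of cells of one type and a change in RNA per cell cannot be told apart.

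The level of the 200 genes was low at 7 DPA, somewhat higher at 14 DPA and many times higher at 21 DPA. Over the genes, the median of the group means in RD57 was 2.03, 3.58, 31.2 and 33.3 FPKM at 7, 14, 21 and 28 DPA. In RD6 these medians were 2.40, 3.93, 25.7 and 29.9 FPKM. The other 10451 eligible genes had medians between 12.8 and 14.1 FPKM in all 8 groups. The 200 genes thus lay below the typical eligible gene at 7 and 14 DPA and above it at 21 and 28 DPA.

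**Figure D1:**
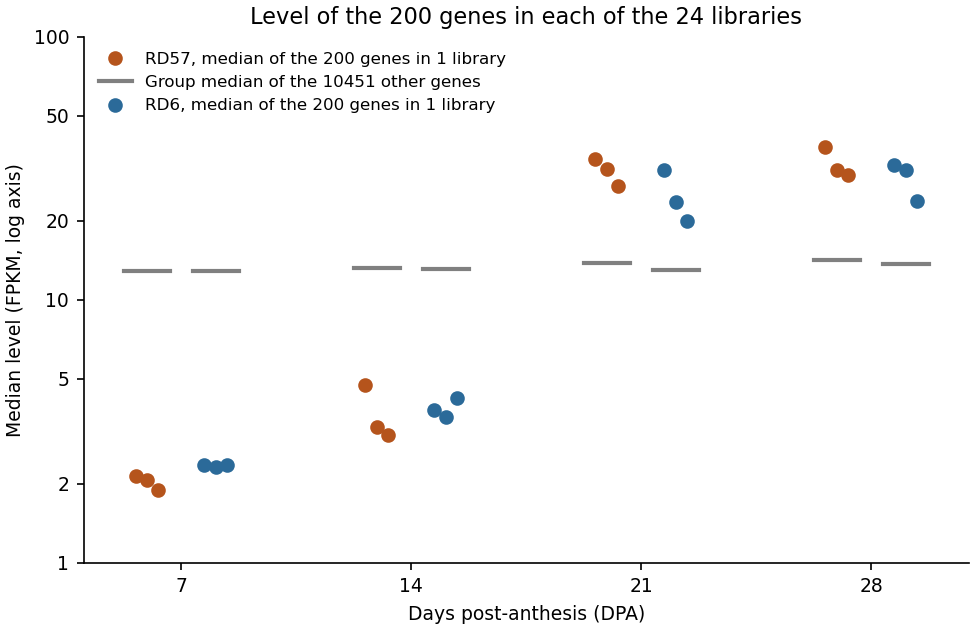
Median FPKM of the 200 genes (vertical log axis) in each of the 24 libraries by DPA, RD57 in brown and RD6 in blue. Grey lines are the group medians of the 10451 other eligible genes, near 13 to 14 FPKM throughout, and the library medians of the 200 genes lie at 1.89 to 4.73 FPKM at 7 and 14 DPA and at 19.9 to 37.9 FPKM at 21 and 28 DPA.

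As a share of all FPKM in a library, the 200 genes made up 0.0746% to 0.169% in the 12 early libraries and 0.932% to 2.22% in the 12 late libraries. Their share thus stayed small at every stage. Over the same libraries the 10 most abundant genes took 13.5% to 40.6% of FPKM at 7 and 14 DPA and 10.4% to 20.1% at 21 and 28 DPA. The summed FPKM was 824388 to 1748780 in the early libraries and 595147 to 998169 in the late ones. The part of these shifts in the rise of the 200 genes was not tested.

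The working description of the group as genes off early in grain development held for few of them. Only 16 of the 200 genes were listed at 0 in all 4 early groups, 15 were at 0 in some of these groups, and 169 were above 0 in all of them. A listed 0 means that fewer than 2 replicates of the group reached the authors' floor of 0.5 FPKM, and not that the transcript was absent. At the other end, 147 genes were above 1 FPKM and 45 were above 5 FPKM in all 4 early groups. The genes are therefore called low early and high late here.

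At 7 DPA 29 genes were at 0, each in both cultivars, and at 14 DPA 18 were. The limit on the cultivar difference does not admit a gene at 0 in 1 cultivar and clearly expressed in the other, so this match was set by the choice of genes. Of the genes at 0 at 7 DPA, 13 were above 0 at 14 DPA, and 2 genes were at 0 at 14 DPA after having been above 0 at 7 DPA. The 16 genes at 0 throughout the early stages were mostly weakly expressed later. Their largest group means had a median of 7.73 FPKM, against 39.9 FPKM for the other 184 genes, and ran from 5.05 to 10.5 FPKM apart from a single gene at 273 FPKM.

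That gene, XLOC_003303, had the highest score, 8.18, and stood apart from all others, the next scores being 4.55 and 4.29. It was listed at 0 in all 12 libraries at 7 and 14 DPA. In RD57 it reached 115, 141 and 98.6 FPKM in the 3 libraries at 21 DPA and 161, 226 and 120 FPKM at 28 DPA. In RD6 the libraries gave 267, 156 and 136 FPKM at 21 DPA and 285, 320 and 215 FPKM at 28 DPA. Every late library was near or above 100 FPKM, RD6 was higher than RD57 on average at both DPA, and the libraries of the cultivars overlapped at both. No ratio of FPKM can be given against groups at 0, and its score depends on the 0.5 added before the logarithm.

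XLOC_018071, with the second highest score, was at 0 in the 6 libraries at 7 DPA and just above the floor at 14 DPA. Its group means at 14 DPA were 0.942 FPKM in RD57 and 0.557 FPKM in RD6, each including 1 value filled in by the authors from the other replicates. At 21 DPA it had 32.7, 32.6 and 25.6 FPKM in RD57 and 45.8, 23.2 and 17.8 FPKM in RD6. At 28 DPA the values were 48.9, 27.3 and 27.9 FPKM in RD57 and 35.4, 30.5 and 13.0 FPKM in RD6. The 21 and 28 DPA libraries overlapped in both cultivars, and so did the cultivars at each of these DPA.

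**Figure D2:**
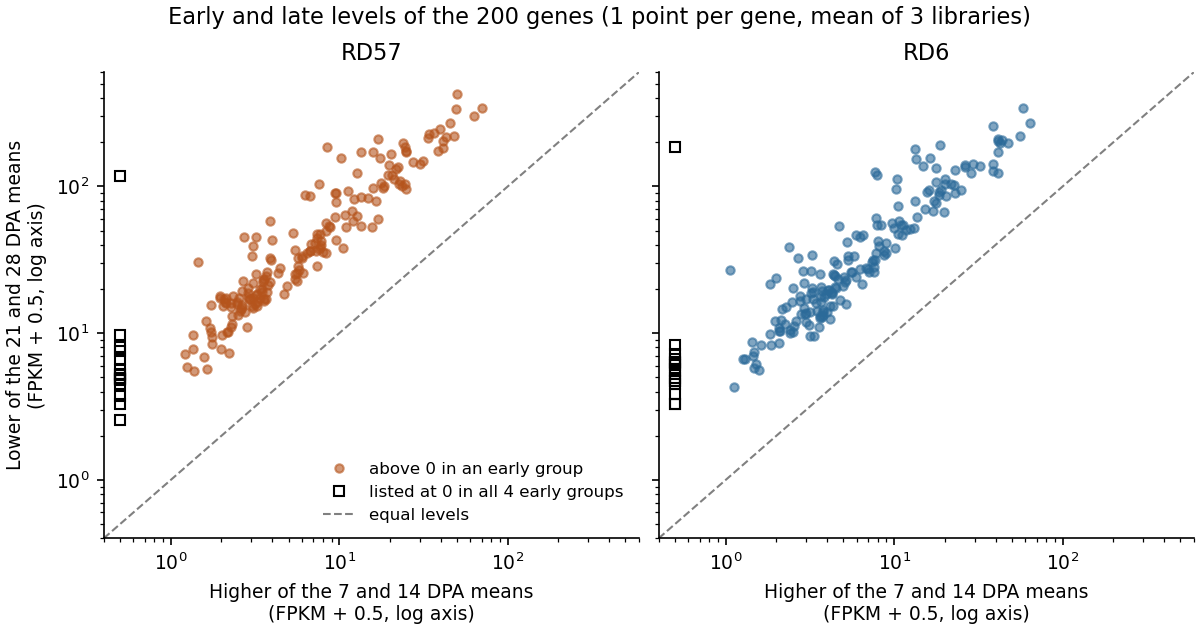
Lower of the 21 and 28 DPA group means against the higher of the 7 and 14 DPA group means for each of the 200 genes, as FPKM + 0.5 on log axes, in RD57 and in RD6. Open squares are the 16 genes listed at 0 in all early groups, the dashed line marks equal levels, and all genes lie above it, with XLOC_003303 far above the other squares.

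The score fell off gradually after the first genes, with a median of 2.41, equal to 5.33-fold on the log2(FPKM + 0.5) scale, and 2.10, or 4.27-fold, at rank 200. The number 200 does not mark a break. Rank 200 had a mean of 1.83 FPKM over the early and 12.1 FPKM over the late libraries, and the first gene not included, with a score of 2.09, had 3.11 and 18.2 FPKM. The last 5 genes inside the list had scores of 2.10 to 2.11 and the first 5 outside it of 2.09. Among the eligible genes 1339 had a score of at least 1 and 4226 a score above 0.

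The limit on the cultivar difference removed about as many genes as were kept. Without it, 388 genes had a score at least as high as that at rank 200, of which it left out 188. Without the limit on the change from 21 to 28 DPA the number was 203, and without the upper limit of 500 FPKM it was 210. Applied in reverse, to genes high early and low late, the same filters passed 9784 genes, and 165 of these reached the score of rank 200 of the low early genes. The highest reversed score was 5.24.

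In all 200 genes every library at 21 and 28 DPA was above every library at 7 and 14 DPA, a pattern found in 10.2% of all 26362 genes. Since the genes were chosen on these levels, the count describes the choice. The gap between the lowest late and the highest early library was 0.16 to 7.63 on the log2 scale, with a median of 1.46, and was at least 1 in 163 genes. The 200 genes were also chosen again without each library in turn, which left at least 183 of them in the list. The library left out was then read against 12 libraries that had all taken part in that choice. Its own replicates had too, and the authors' floor and filled values tie replicates together. The counts that follow therefore describe the choice and are no independent check of it. In the library left out, 198 to 200 of the newly chosen genes lay on the side of its stage, above all 12 early libraries or below all 12 late ones. Over all genes 20.1% to 25.7% did so. The count was 200 for 18 libraries, 199 for 5 libraries and lowest for RD6 28 DPA replicate 3.

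Most of the genes were already higher at 14 than at 7 DPA, and a minority were not. Averaged over the cultivars, 152 genes were higher at 14 than at 7 DPA, 32 were lower and 16 were at 0 at both, with a median difference of 0.51 on the log2 scale. The other eligible genes were higher at 14 DPA in 47.4% of cases, with a median of -0.03. In 59 of the 200 genes the difference was at least 1, and it ranged from -1.77 to 4.17. Compared with 28 DPA, the level at 7 DPA had a median of 6.71% in RD57 and 9.15% in RD6, and the level at 14 DPA a median of 12.4% and 13.7%.

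A gene with a large early difference was XLOC_015406. In RD57 it had 0.904, 1.90 and 2.19 FPKM at 7 DPA, 59.9, 28.4 and 19.8 FPKM at 14 DPA, 227, 234 and 227 FPKM at 21 DPA and 315, 256 and 262 FPKM at 28 DPA. In RD6 it had 2.49, 2.87 and 2.15 FPKM at 7 DPA, 36.8, 30.3 and 55.4 FPKM at 14 DPA, 127, 116 and 126 FPKM at 21 DPA and 177, 181 and 122 FPKM at 28 DPA. No library at 14 DPA overlapped those at 7 or 21 DPA in either cultivar, so its level was stepwise higher over the first 3 stages.

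XLOC_038503 had the opposite early course, with a level just above the floor at 7 DPA and 0 at 14 DPA. Its mean at 7 DPA was 0.860 ± 0.165 FPKM in RD57, with 1 value filled in by the authors, and 0.965 ± 0.209 FPKM in RD6 (SD, n = 3). It was listed at 0 in the 6 libraries at 14 DPA. At 21 DPA it had 8.15, 12.3 and 7.28 FPKM in RD57 and 8.23, 4.77 and 2.85 FPKM in RD6, and at 28 DPA 20.6, 13.9 and 12.5 FPKM in RD57 and 10.5, 6.24 and 6.77 FPKM in RD6. At 28 DPA all RD57 libraries were above all RD6 libraries, while at 21 DPA they overlapped.

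The step from 14 to 21 DPA had a median log2 fold change (Log2FC) of 2.70 in RD57 and 2.39 in RD6, and all 200 genes were higher at 21 DPA in each cultivar. It ranged from 1.79 to 7.88 in RD57 and from 1.62 to 8.48 in RD6. Both upper ends belong to XLOC_003303, 1 of the 18 genes listed at 0 at 14 DPA in both cultivars. For these 18 genes the Log2FC depends on the 0.5 added before the logarithm. In RD57 192 of the 200 genes were called, having a Log2FC of 2 or more and an adjusted p of 0.05 or less (limma, Benjamini-Hochberg over all genes), where 5.01% of all genes rose by this rule. In RD6 181 genes were called, against 3.79% of all genes. Both counts follow from how the genes were chosen, and nothing is read from them.

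From 21 to 28 DPA, where the choice of genes admitted changes in either direction of up to 1, the 200 genes tended to be somewhat higher at 28 DPA. Averaged over the cultivars, 159 genes were higher and 41 lower at 28 DPA, with a median of 0.19 on the log2 scale. Of the other eligible genes 57.3% were higher, with a median of 0.06. In 120 genes the level was higher at 28 DPA in both cultivars, in 21 it was lower in both, and in 59 the cultivars went in opposite directions. The largest group mean fell at 28 DPA in 157 genes, 105 of them in RD57 and 52 in RD6, and at 21 DPA in the other 43.

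Few of these differences passed the test for a single gene. In RD57 7 genes were significantly higher at 28 DPA by limma at an adjusted p of 0.05 or less, and in RD6 17 genes were. Among all genes 4.89% rose in RD57 and 9.19% rose in RD6. None of the 200 genes was called lower in either cultivar, where the percentages of all genes were 11.3% and 22.9%. At an unadjusted p under 0.05, 20 genes were higher and 1 lower in RD57, and 40 were higher and 1 lower in RD6. The limit of 1 on this change had removed genes with larger changes before the list was drawn, so the counts describe the selected genes only.

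These counts depended on single libraries. The RD57 count was 4 without RD57 21 DPA replicate 1 and 2 without RD57 21 DPA replicate 3. The RD6 count was 37 without RD6 21 DPA replicate 1 and 35 without RD6 28 DPA replicate 3. It was 7 without RD6 21 DPA replicate 3 or without RD6 28 DPA replicate 2, and 8 without RD6 28 DPA replicate 1.

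The genes with the greatest differences between 21 and 28 DPA were picked for their extreme values and are given without a test. XLOC_037843 was listed at 0 in all early libraries, and its difference was 1.00 on the log2 scale. It had 2.38, 1.82 and 1.92 FPKM at 21 DPA and 6.44, 4.93 and 5.38 FPKM at 28 DPA in RD57. In RD6 it had 2.84, 3.95 and 1.52 FPKM at 21 DPA and 4.18, 4.26 and 5.72 FPKM at 28 DPA. All 28 DPA libraries were above all 21 DPA libraries in each cultivar, at low levels throughout.

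XLOC_016844, with a difference of 0.87, showed the same separation at higher levels. In RD57 it had 49.3, 45.1 and 38.0 FPKM at 21 DPA and 112, 74.5 and 110 FPKM at 28 DPA. In RD6 it had 36.8, 31.6 and 30.5 FPKM at 21 DPA and 60.8, 52.0 and 40.2 FPKM at 28 DPA. Its early group means were between 3.02 and 6.88 FPKM, and every RD57 library was above every RD6 library at 21 DPA and again at 28 DPA.

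At the other end, XLOC_008466 and XLOC_034350 were both lower at 28 than at 21 DPA by -0.39 on the log2 scale. XLOC_008466 had 21.7, 22.7 and 23.2 FPKM at 21 DPA and 23.7, 12.1 and 15.2 FPKM at 28 DPA in RD57. In RD6 it had 22.1, 16.6 and 8.69 FPKM at 21 DPA and 12.4, 13.1 and 9.57 FPKM at 28 DPA. XLOC_034350 had 30.2, 27.7 and 22.4 FPKM at 21 DPA and 38.0, 22.4 and 16.8 FPKM at 28 DPA in RD57. Its RD6 values were 35.1, 25.2 and 18.9 FPKM at 21 DPA and 19.3, 18.6 and 11.5 FPKM at 28 DPA. For both genes the 21 and 28 DPA libraries overlapped within each cultivar, so neither decline exceeded the spread between libraries.

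**Figure D3:**
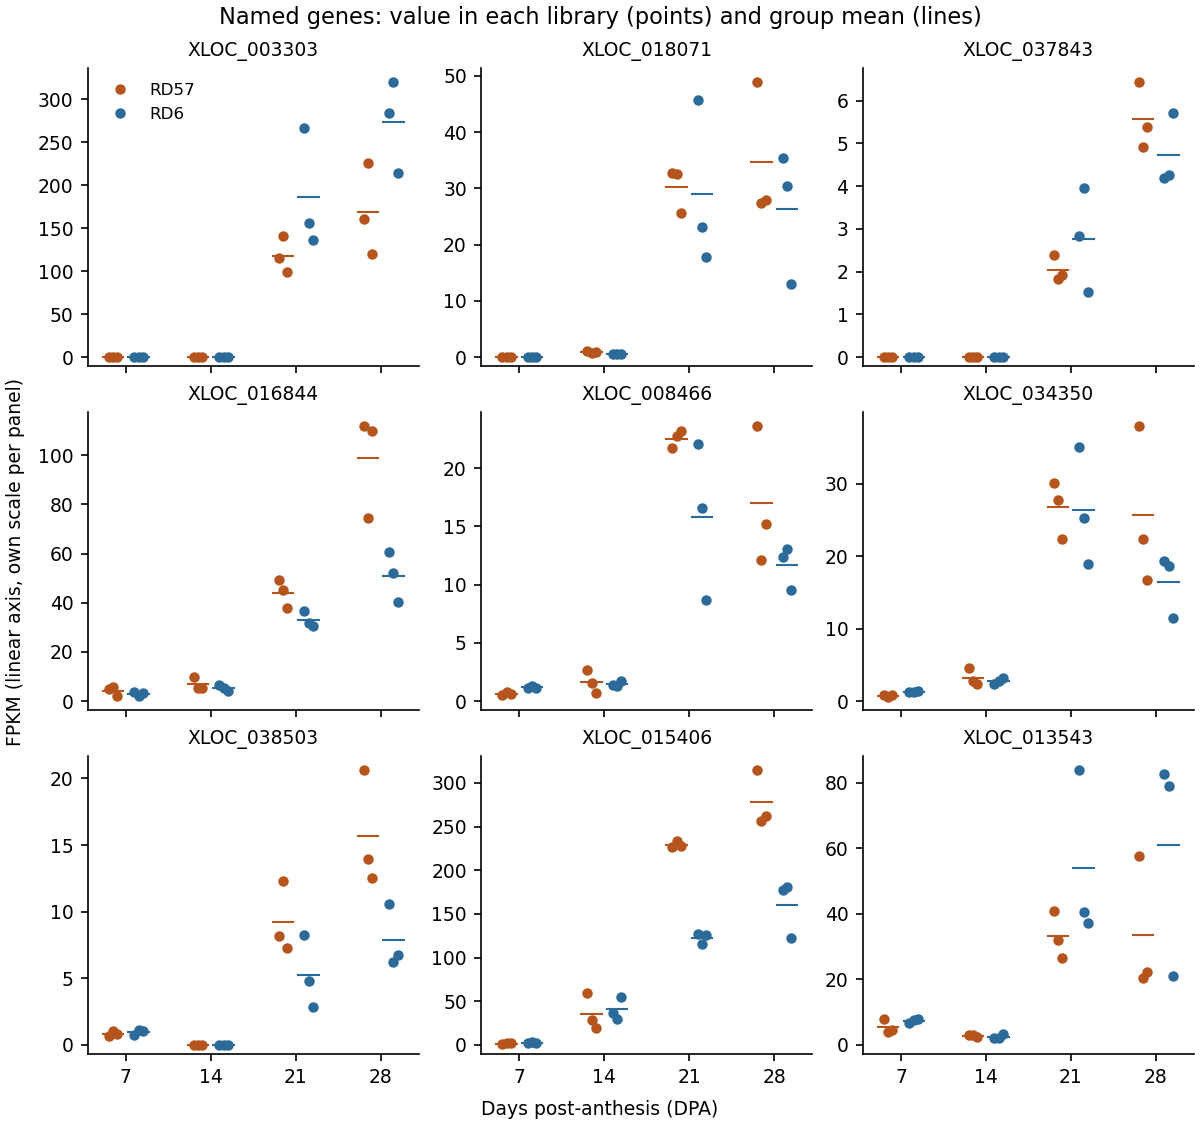
FPKM (linear axis with its own scale in each panel) of the 9 genes named in the text by DPA, 1 point per library, RD57 in brown, RD6 in blue and group means as lines. XLOC_003303 is at 0 at 7 and 14 DPA, XLOC_015406 has intermediate values at 14 DPA, and several genes have a late library well apart from the other replicates of its group.

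Within the limit of 1 that was set on their difference, more of the genes were higher in RD6 at 7 DPA and more were higher in RD57 at 21 and 28 DPA. At 7 DPA RD6 was higher in 117 genes and RD57 in 54, with a median RD57 minus RD6 difference of -0.11 on the log2 scale. At 14 DPA 91 genes were higher in each. At 21 DPA RD57 was higher in 150 and RD6 in 50 genes, with a median of 0.21, and at 28 DPA RD57 was higher in 138 and RD6 in 62, with a median of 0.24. Among the other eligible genes RD57 was higher in 57.4% at 21 DPA and in 55.3% at 28 DPA, with medians of 0.07 and 0.04. At 7 DPA RD6 was higher in 52.0% of those genes, with a median of -0.02.

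The same cultivar was the higher one at both late stages in most of the genes. RD57 was higher at 21 and 28 DPA in 122 genes and RD6 in 34, and 44 genes changed order. In 65 genes RD6 was higher at 7 DPA and RD57 at both late stages, so their increase from 7 DPA to either late stage was larger in RD57. These counts were not made for the other eligible genes. The direction of the late differences held under the other scalings tried, although the count at 28 DPA was 118 against 82 after quantile normalization, with a median of 0.11. Without RD6 21 DPA replicate 3 RD57 was higher at 21 DPA in 116 genes, and without RD6 28 DPA replicate 3 it was higher at 28 DPA in 109 genes.

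**Figure D4:**
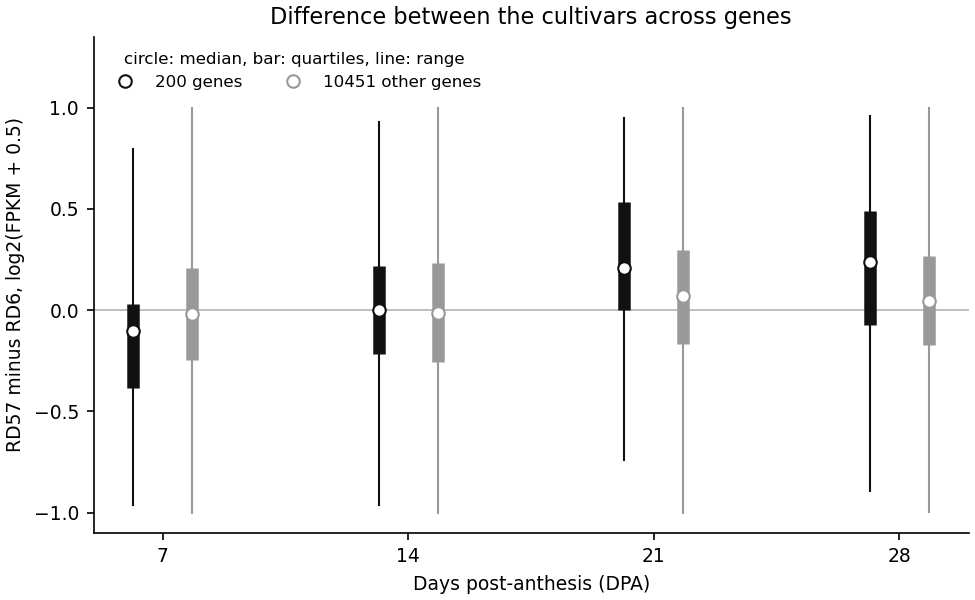
RD57 minus RD6 difference in mean log2(FPKM + 0.5) at 7, 14, 21 and 28 DPA for the 200 genes (black) and the 10451 other eligible genes (grey), with circles for medians, bars for quartiles and lines for the range over genes. The median of the 200 genes goes from -0.11 at 7 DPA to 0.21 and 0.24 at 21 and 28 DPA, and all genes lie within 1 of 0 because the choice required it.

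Gene by gene, most of the late cultivar differences did not pass the test. By limma at an adjusted p of 0.05 or less, 23 genes were higher and 1 was lower in RD57 than in RD6 at 21 DPA, against 13.6% and 15.5% of all genes. At 28 DPA 14 genes were higher and 3 were lower, against 11.0% and 4.09% of all genes. The differences that passed were 0.39 to 0.96 in size, since larger ones were not admitted. As for the stages, single libraries decided these counts. At 21 DPA the total was 24, and it was 36 without RD6 21 DPA replicate 1, 14 without RD6 21 DPA replicate 2 and 6 without RD6 21 DPA replicate 3. It was 9 without RD57 21 DPA replicate 1 and also 9 without RD57 21 DPA replicate 2. At 28 DPA the total was 17, and it was 7 without RD57 28 DPA replicate 1 and 11 without RD57 28 DPA replicate 3.

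No gene was found whose change from 21 to 28 DPA differed between the cultivars. By limma 0 of the 200 genes reached an adjusted p of 0.05 or less in either direction. Of all genes, 12.6% had a change that was higher in RD57 and 4.52% one that was lower. At an unadjusted p under 0.05, 1 of the 200 genes was higher and 2 were lower. Without RD6 21 DPA replicate 3 the number called was 1, and without RD6 28 DPA replicate 3 it was 2. The limits of the choice cap this difference, and the 59 genes with opposite directions are not shown to differ between RD57 and RD6.

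The genes most different between the cultivars late in development are again given without a test. XLOC_038503, described above, had the highest RD57 minus RD6 difference, 0.83 at 21 DPA and 0.96 at 28 DPA. XLOC_015406 followed with 0.90 and 0.81, and its RD57 libraries were all above its RD6 libraries at both DPA. In the other direction, XLOC_003303 had -0.61 and -0.72, and XLOC_013543 had -0.61 and -0.79.

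XLOC_013543 was among the genes that were lower at 14 than at 7 DPA, with means of 5.50 ± 2.02 and 2.84 ± 0.373 FPKM in RD57 and 7.40 ± 0.647 and 2.47 ± 0.704 FPKM in RD6 (SD, n = 3). At 21 DPA it had 40.9, 32.2 and 26.6 FPKM in RD57 and 84.0, 40.6 and 37.3 FPKM in RD6. At 28 DPA it had 57.8, 20.5 and 22.1 FPKM in RD57 and 82.5, 79.0 and 21.2 FPKM in RD6. The cultivars overlapped at both DPA, and RD6 28 DPA replicate 3 was as low as the lower RD57 libraries.

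Replicates of a late group often differed in most of the 200 genes at once. The choice used only group means, but it kept genes that differ strongly between stages in 1 direction. Shared deviations of these genes in a library are therefore not independent of it. In RD6 at 21 DPA the median level of the 200 genes was 31.3, 23.6 and 19.9 FPKM in replicates 1, 2 and 3. Replicate 1 was above the group mean in 188 genes, by a median of 0.34 on the log2 scale. Replicate 3 was below it in 192 genes, with a median of -0.31, and replicate 2 was above it in 82 genes and below in 118. In the other eligible genes 43.5% to 57.4% were above the group mean in any of the 24 libraries, and the median deviation never exceeded 0.04 in size. Those genes went both ways with stage, 48.6% being higher and 51.2% lower at 21 than at 14 DPA. Opposite deviations can cancel in their median, so the 2 sets are not a like comparison.

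The same held, to a smaller extent, for other groups. RD6 28 DPA replicate 3 was below the group mean in 172 of the 200 genes with a median of -0.28, and its median level was 23.7 FPKM against 32.5 and 31.0 FPKM in replicates 1 and 2. RD57 21 DPA replicate 3 was below in 189 genes with a median of -0.17, at 27.2 FPKM against 34.3 and 31.5 FPKM. RD57 28 DPA replicate 1 was above in 156 genes with a median of 0.18, at 37.9 FPKM against 31.1 and 29.9 FPKM. At 14 DPA, RD57 replicate 1 was above in 148 genes with a median of 0.26 and RD6 replicate 3 in 153 genes with a median of 0.16. At 7 DPA, where 29 of the genes were at 0, the median deviations were 0.03 or less in size in all 6 libraries.

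Through these shifts the late groups overlapped as whole groups. The median level in the 3 libraries ran from 27.2 to 34.3 FPKM at 21 DPA and from 29.9 to 37.9 FPKM at 28 DPA in RD57. In RD6 it ran from 19.9 to 31.3 FPKM at 21 DPA and from 23.7 to 32.5 FPKM at 28 DPA. The cultivars therefore overlapped at each late stage, and the stages in each cultivar. The majorities of genes higher at 28 DPA or higher in RD57 were not tested against this spread between libraries. Genes that move together in a library are not separate evidence, so no conclusion is drawn from these majorities.

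**Figure D5:**
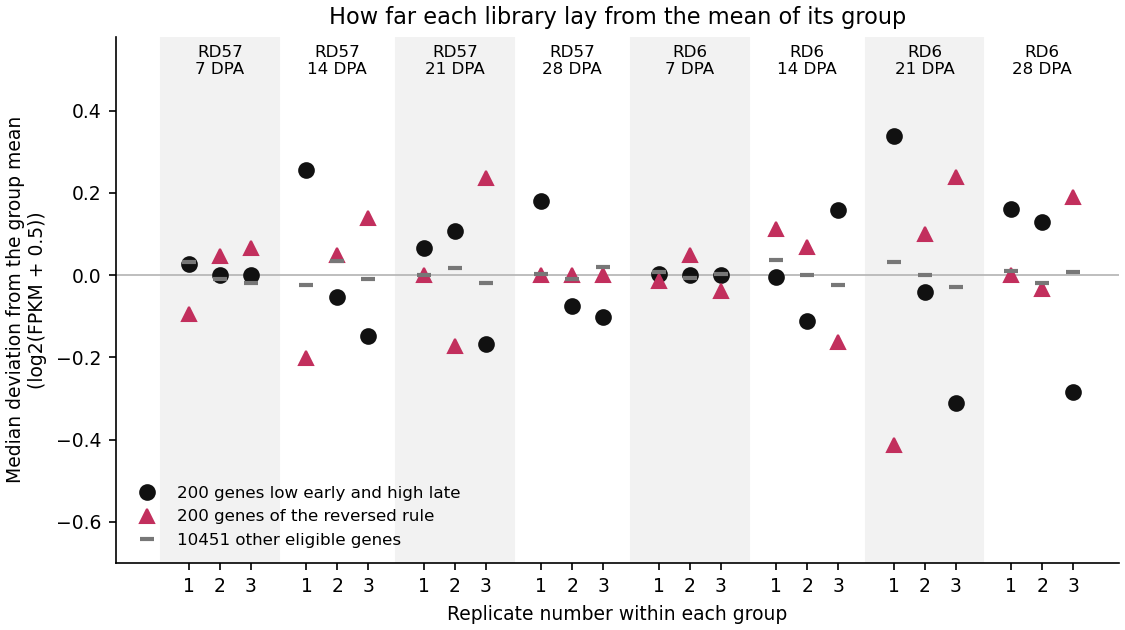
Median deviation of each library from the mean of its group, in log2(FPKM + 0.5), for the 200 genes (black circles), for the 200 genes with the highest score of the reversed rule (red triangles) and for the 10451 other eligible genes (grey dashes), by group and replicate number. The 200 genes range from -0.31 to 0.34, both in RD6 at 21 DPA, and the other eligible genes stay within 0.04 of 0.

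The genes of the reversed rule, high early and low late, deviated in the opposite direction in the libraries that stood out most. They were chosen from the same libraries for the opposite pattern, so their deviations are not independent of that choice and are no separate evidence. For the 200 highest scores of that rule the median deviation in RD6 at 21 DPA was -0.41 in replicate 1, with 13 genes above the group mean. In replicate 3 it was 0.24. It was 0.24 in RD57 21 DPA replicate 3 and 0.19 in RD6 28 DPA replicate 3. In each cultivar 35 of these genes were listed at 0 at 21 DPA and 81 at 28 DPA, and a gene at 0 in a group cannot deviate there. In RD57 at 28 DPA the median deviation was 0.00 in all 3 replicates. There 49, 52 and 88 genes were above the group mean in replicates 1, 2 and 3. The 10 most abundant genes took 13.8%, 20.1% and 18.3% of FPKM in replicates 1, 2 and 3 of RD6 at 21 DPA, and the 200 low early genes took 1.66%, 1.08% and 0.932%. After quantile normalization replicates 1 and 3 deviated by 0.39 and -0.33 and after median of ratios scaling by 0.34 and -0.30. What set these libraries apart was not tested.

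The median SD between replicates was larger for the 200 genes than for the other eligible genes in all 8 groups, by differing amounts. In RD6 at 21 DPA it was 0.37 on the log2 scale for the 200 genes and 0.21 for the other eligible genes. It was 0.36 against 0.24 in RD57 at 14 DPA and 0.33 against 0.23 in RD6 at 28 DPA. The values were closest in RD6 at 7 DPA, with 0.18 against 0.17, and in RD57 at 21 DPA they were 0.19 against 0.15. None of the 200 genes had a filled value at 21 or 28 DPA. At 7 DPA a filled value was present in 16 of the 171 genes above 0 in RD57 and in 10 of 171 in RD6, and at 14 DPA in 7 of 182 and 4 of 182, so the early spread is understated for some. Among all genes above 0 the share with a filled value at 7 DPA was 9.61% in RD57 and 8.47% in RD6. At 14 DPA it was 10.2% and 9.17%.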

How the data were processed

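The deposited table holds FPKM for 26362 genes in 24 libraries, and 0 columns were left without a sample. The authors sequenced stranded mRNA libraries, trimmed and filtered the reads (Fastp, Trimmomatic), removed rRNA (SortMeRNA), aligned to the indica assembly ASM465v1 with HISAT2, assembled with Cufflinks and Cuffmerge and scaled the FPKM with Cuffquant and Cuffnorm. FPKM under 0.5 were dropped by the authors, genes seen in fewer than 2 replicates of a group were not kept, and a missing replicate received the average of the other values. A listed 0 is thus a value under that floor, or the only value of its group above it, and a filled value narrows the spread. A value was counted as filled when it equalled the mean of the other 2 within a relative tolerance of 1e-05. Read counts are not in the table and whole reads could not be recovered from the low values, so the depth behind a value is unknown and no counting interval is given. How reads of near-identical gene copies were divided was not examined.

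Groups are cultivar and DPA, from the sample labels. The 8 group means were fitted to log2(FPKM + 0.5) of all 24 libraries with limma 3.58.1 (R 4.3.3), using a trended prior variance, with Benjamini-Hochberg adjustment over all genes. A fold change on this scale understates that of low genes. The authors' edgeR model needs counts and was not used. Summaries used pandas 2.3.3 in Python 3.11.15, and plots matplotlib 3.10.9. The biological replicates are described as separately grown, and values after ± are SD over 3 libraries.

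Membership and all comparisons were chosen with earlier results of these data known. Named genes are the 2 with the highest score, the 2 with the largest increase and the 2 with the largest decrease from 21 to 28 DPA, and the 2 most above and 2 most below 0 in RD57 minus RD6 averaged over 21 and 28 DPA. Alternatives were pseudocounts of 0.1 and 1, quantile normalization, median of ratios scaling, other limits in the choice of genes, a filter on values of 0, fits of only the libraries compared, a replicate block, and leaving out each library.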

Additional observations from a re-analysis of the deposited data

How the results depend on the processing

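The list of 200 genes kept 158 to 197 of its members under other pseudocounts, scalings and limits, except that without the limit on the cultivar difference it kept 86. Leaving out each library kept at least 183 of them. The pattern of all late above all early libraries held in 200 of 200 genes with all libraries. Leaving out a library cannot break it in the same genes, so this was no check. The calls for 14 to 21 DPA were counted in the list as first chosen, so they follow from the choice of genes. Leaving out each library in turn gave at least 189 genes for 14 to 21 DPA in RD57 and 154 to 188 in RD6. For 21 to 28 DPA it gave 2 to 8 in RD57 and 7 to 37 in RD6. For the cultivar difference it gave 6 to 36 at 21 DPA and 7 to 14 at 28 DPA, and for the difference between the cultivars' changes 0 to 2. The majority of genes higher in RD57 was 116 to 171 at 21 DPA and 109 to 149 at 28 DPA, and that higher at 28 DPA was 134 to 177, all in settings added after the data were seen. For 21 to 28 DPA, RD57 called 4 genes when only genes above 0 in every library compared were tested. RD6 called 40 genes after quantile normalization, where the median change of all genes above 0 in both groups was 0.29 against 0.06 as deposited, and 4 in a fit of only the libraries compared. At 28 DPA the cultivar difference gave 8 genes after quantile normalization and 9 in a fit of only the libraries compared, which called 1 gene for the difference between changes. Apart from these construction differences the cause was not tested. Same-numbered replicates did not in general deviate together. Over 84 pairs of libraries with the same number the median r was -0.0003, with 9 over 0.1. Over 168 pairs with different numbers it was -0.0105, with 23 over 0.1. For 8 of 24 libraries the closest match carried their own number. The numbers were therefore treated as names in the main fits. Single pairs with the same number had r from -0.30 to 0.30, so a weak block cannot be told from none. With the replicate block RD6 called 27 genes for 21 to 28 DPA, and the other counts stayed within 1.5 times. The score of XLOC_003303 was 10.50 with a pseudocount of 0.1 and 7.18 with 1. The table keeps no read counts, so what depth allows for low genes could not be stated.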
